A study of Mus musculus with 6 samples.

Results

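Fc gamma receptors, the surface receptors through which macrophages bind antibody of the IgG class, were examined together with the proximal signalling genes that act behind them. The 9 genes were chosen by symbol: the receptor genes Fcgr1, Fcgr3, Fcgr4 and Fcgr2b, the shared signalling chain Fcer1g, the kinases Lyn and Syk, the phospholipase Plcg2 and the inositol phosphatase Inpp5d. All 9 were found among the 45193 genes of the count table, and all 9 had enough reads to be among the 12011 genes tested.

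Macrophages grown from mouse bone marrow were profiled by mRNA sequencing, with 3 libraries for each of 2 genotypes. RXRKO cells carried loxP-flanked Rxra alleles, Cre recombinase under the lysozyme M locus, which is active in myeloid cells, and no intact Rxrb allele (RXRafl/flLysMCre RXRb-/-). WT cells were wild type, with no Cre described, and both genotypes were on the C57BL/6J background. Marrow of both was grown for 6 days with conditioned medium of the L929 cell line, which supplies the growth factor CSF-1. Serum was withdrawn late in the culture and the solvent DMSO was added for 3 hours, so neither genotype had been given antibody complexes or another stimulus. The replicates are called biological, but the animals behind them are not described, so each p-value reflects only how far these libraries spread, which may be partly technical.

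Library totals were between 17250051 and 25091019 reads in RXRKO and between 7880320 and 14957253 reads in WT, a ratio of means of 1.87 (exact two-sided permutation p = 0.1, the smallest that 3 against 3 allow). Depth and genotype cannot be told apart by design. Of the targeted genes, Rxrb fell to 9.27 ± 2.09 CPM (reads of a gene scaled to a common library total) in RXRKO, against 66.7 ± 1.86 CPM in WT (SD, n = 3 each). Rxra was at 109 ± 4.83 CPM in RXRKO and 104 ± 6.7 CPM in WT, which checks nothing, since a count over the whole gene does not show whether the part between loxP sites was removed. Lyz2, at the locus that carries Cre, was at 28.4 ± 6.12 CPM in RXRKO and 15300 ± 594 CPM in WT, so effects of RXR loss, Cre and Lyz2 loss cannot be told apart. The cells expressed macrophage markers in both genotypes: the 10 markers summed to between 8060 and 9320 CPM in RXRKO libraries and between 7360 and 8400 CPM in WT libraries, with Csf1r, the CSF-1 receptor gene, the most abundant.

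Fc gamma receptors come in activating and inhibitory forms. Mouse Fcgr1, Fcgr3 and Fcgr4 encode activating receptors that lack a signalling motif of their own and pair with the Fc receptor gamma chain, the product of Fcer1g, whose tail carries an immunoreceptor tyrosine-based activation motif (ITAM). When receptors are clustered by antibody-coated particles, Src family kinases such as Lyn phosphorylate the ITAM, Syk docks on it, and Syk activates phospholipase C gamma, adaptors and PI3 kinase, which drive engulfment, calcium release and cytokine production. Fcgr2b carries an inhibitory motif (ITIM) instead, and recruits the phosphatase SHIP-1, encoded by Inpp5d, which removes the product of PI3 kinase and raises the threshold for activation.

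Upstream sequences are shown for the receptor genes that differed between the genotypes, with matches to the motifs of factors known for these genes or for RXR partners in capitals. They are RefSeq sequences of GRCm38.p6 on the strand of each gene, 5′ to 3′, and 8 of the 9 genes had an entry. The window searched was the 250 bases before the annotated start. The motifs searched on both strands were AGGTCA, the half-site read by many nuclear receptors, TTCNNNGAA, a site of STAT proteins, and GAGGAA, a core read by the myeloid factor PU.1. For Fcgr2b only 30 bases around its single match are printed, chr1:170976265-170976294 on the minus strand, because the match itself overlaps an annotated exon. Fcgr4 is shown over chr1:171018676-171018919 on the plus strand and Fcgr1 over chr3:96293970-96294219 on the minus strand.
Fcgr2b: taccagacgtccAGGTCAgctacggctcca
Fcgr4: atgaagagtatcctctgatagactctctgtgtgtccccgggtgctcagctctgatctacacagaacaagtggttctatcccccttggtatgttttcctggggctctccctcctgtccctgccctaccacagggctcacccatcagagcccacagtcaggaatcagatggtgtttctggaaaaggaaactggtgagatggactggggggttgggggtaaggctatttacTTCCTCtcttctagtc
Fcgr1: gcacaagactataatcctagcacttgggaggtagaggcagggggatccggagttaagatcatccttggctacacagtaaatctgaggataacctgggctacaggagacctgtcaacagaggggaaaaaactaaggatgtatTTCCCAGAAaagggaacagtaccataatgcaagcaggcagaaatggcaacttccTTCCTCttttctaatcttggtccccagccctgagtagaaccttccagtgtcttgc
The Fcgr2b window held AGGTCA and neither of the other motifs, and AGGTCA is found in 14% of 32851 promoter windows of this length. Fcgr4 held GAGGAA on the opposite strand, where it reads TTCCTC, a motif of 23.3% of windows. Fcgr1 held a match to TTCNNNGAA, found in 7.02% of windows, and GAGGAA, again as TTCCTC. The motifs share no base in these stretches. Fcgr3, Inpp5d and one of the alternative starts of Syk also held GAGGAA, while the windows of Fcer1g and Plcg2 held none of these letters. A match describes the letters and not the binding of a factor, which was not measured. The motifs were picked with the sequences in view.

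The inhibitory receptor gene Fcgr2b rose the most of the 9 genes. It had 34, 36.2 and 27.5 CPM in RXRKO replicates 1, 2 and 3, against 19.3, 16.7 and 17 CPM in the WT replicates. Every RXRKO library lay above every WT library, and the gap between the closest libraries exceeded the spread among the WT libraries. The mean was 32.6 ± 4.5 CPM in RXRKO and 17.7 ± 1.43 CPM in WT (SD, n = 3 each). The log2 fold change was 0.89 (SE 0.127, 95% interval 0.61 to 1.16, edgeR quasi-likelihood Benjamini-Hochberg adjusted p = 0.000379), which is 1.85-fold. These levels rest on 507 to 912 reads per library in RXRKO and 128 to 260 reads in WT. The call held in all 17 alternative analyses, with log2 fold changes between 0.80 and 0.99 when 1 library was left out.

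Among the activating receptor genes, Fcgr4 rose, Fcgr1 fell and Fcgr3 did not pass the test. Fcgr4 encodes a receptor for IgG2a and IgG2b of the mouse. It had 39.6, 38.5 and 32.1 CPM in the RXRKO replicates, against 23.9, 18.7 and 30.3 CPM in the WT replicates. The groups did not overlap, but RXRKO replicate 3 and WT replicate 3 were only a little apart. The mean was 36.7 ± 4.05 CPM in RXRKO and 24.3 ± 5.84 CPM in WT (SD, n = 3 each), and the log2 fold change was 0.57 (SE 0.152, interval 0.24 to 0.90, edgeR adjusted p = 0.0188). The call was lost without RXRKO replicate 1 (edgeR adjusted p = 0.075), RXRKO replicate 2 (0.0519), WT replicate 1 (0.0927) or WT replicate 2 (0.0521), with the direction unchanged in each of these 4 fits.

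Fcgr1, which encodes the high-affinity receptor for monomeric IgG2a (CD64), went the other way. It had 90.5, 87.2 and 72.3 CPM in the RXRKO replicates, against 118, 101 and 105 CPM in the WT replicates. All RXRKO libraries lay below all WT libraries. The mean was 83.3 ± 9.69 CPM in RXRKO and 108 ± 8.87 CPM in WT (SD, n = 3 each), and the log2 fold change was -0.37 (SE 0.102, interval -0.59 to -0.15, edgeR adjusted p = 0.022), so that RXRKO had 77.3% of the WT level. The call was lost without RXRKO replicate 3 (-0.28, edgeR adjusted p = 0.0624) or WT replicate 1 (-0.31, edgeR adjusted p = 0.111).

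Fcgr3, the most abundant of the receptor genes per length, encodes the low-affinity activating receptor of macrophages. It had 293, 308 and 166 CPM in the RXRKO replicates, against 288, 168 and 265 CPM in the WT replicates. The groups overlapped almost entirely, because 1 library of each genotype, RXRKO replicate 3 and WT replicate 2, stood well below the other 4. The means were 256 ± 78.4 CPM in RXRKO and 240 ± 63.8 CPM in WT (SD, n = 3 each), a log2 fold change of 0.09 with a 95% interval of -0.68 to 0.86 (edgeR adjusted p = 0.881). A change as large as that of Fcgr2b lies just outside this interval, and one as large as that of Fcgr4 lies inside it. With both low libraries left out, a step added after seeing the data, the estimate was 0.12 (edgeR adjusted p = 0.33), and Fcgr2b (0.96), Fcgr4 (0.51) and Fcgr1 (-0.32) were called in the same directions as with all libraries.

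**Figure D1:**
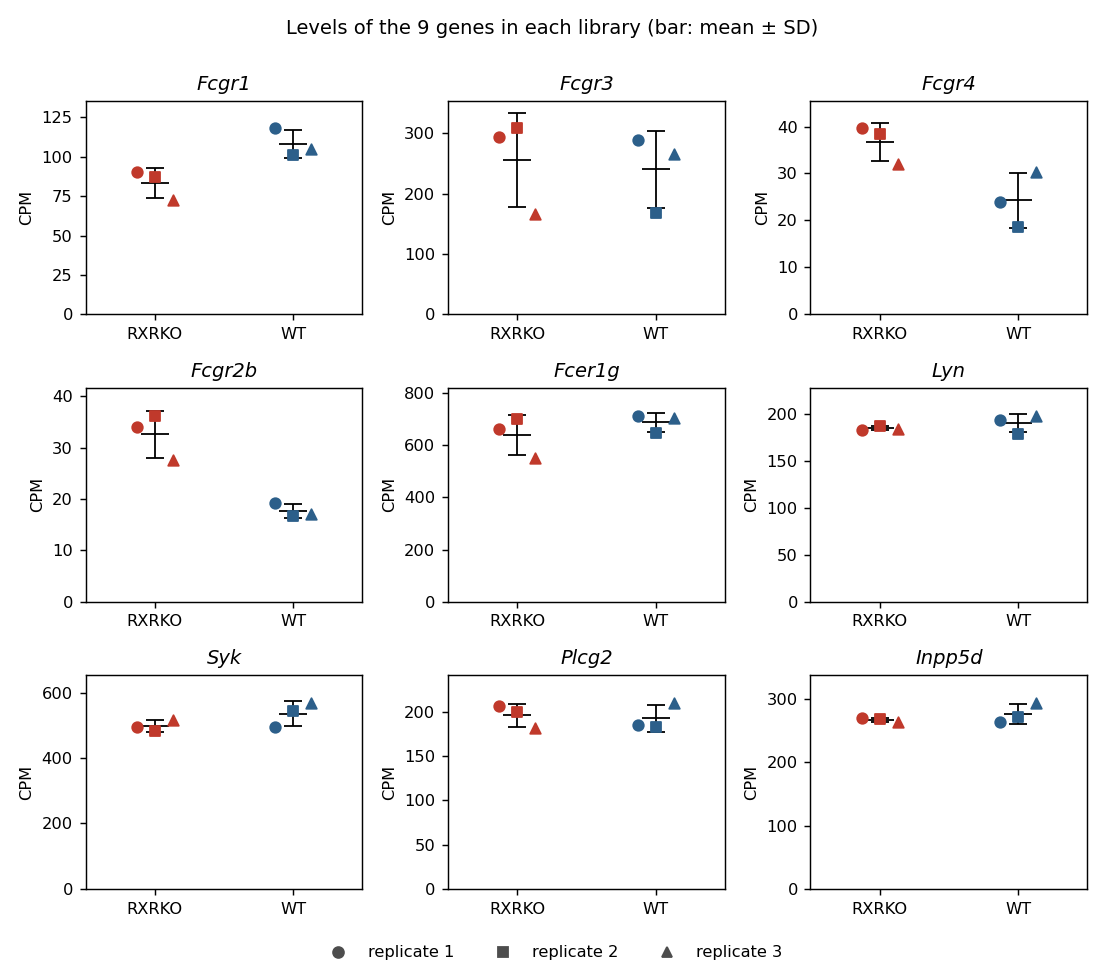
Level of each of the 9 genes in CPM (vertical axes, each from 0) in the 3 RXRKO libraries (red) and the 3 WT libraries (blue), with marker shapes for the replicate and black bars for the mean ± SD. Fcgr2b and Fcgr4 are higher and Fcgr1 lower in RXRKO with no overlap, while Fcgr3 has 1 low library in each genotype, at 166 CPM in RXRKO and 168 CPM in WT.

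The signalling chain and the enzymes behind the receptors showed small differences, none past the threshold. Fcer1g had 664, 702 and 552 CPM in the RXRKO replicates, against 714, 647 and 707 CPM in the WT replicates. The groups overlapped, and RXRKO replicate 3 was the lowest of all libraries. Its log2 fold change was -0.11 (95% interval -0.32 to 0.10, edgeR adjusted p = 0.469).

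Lyn, which phosphorylates ITAMs as well as the inhibitory motif of Fcgr2b, had 183, 187 and 184 CPM in the RXRKO replicates, against 193, 179 and 198 CPM in the WT replicates. The RXRKO libraries all lay inside the WT range, and the log2 fold change was -0.04 (95% interval -0.21 to 0.12, edgeR adjusted p = 0.748). Syk, the kinase that docks on the phosphorylated ITAM, had 494, 481 and 516 CPM in the RXRKO replicates, against 494, 545 and 568 CPM in the WT replicates. Here 1 WT library fell within the RXRKO range and the others above it, for a log2 fold change of -0.11 (95% interval -0.28 to 0.07, edgeR adjusted p = 0.385). When the fit included offsets for GC content and length of transcripts, Syk passed the threshold downward (-0.28, edgeR adjusted p = 0.0129).

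Plcg2, the phospholipase that releases calcium-mobilising inositol phosphate downstream of Syk, had 207, 200 and 182 CPM in the RXRKO replicates, against 185, 183 and 210 CPM in the WT replicates. These ranges overlapped almost completely (log2 fold change 0.03, 95% interval -0.16 to 0.21, edgeR adjusted p = 0.874). Inpp5d, the gene of the phosphatase that Fcgr2b recruits, had 270, 268 and 264 CPM in the RXRKO replicates, against 264, 272 and 294 CPM in the WT replicates. Its log2 fold change was -0.05 (95% interval -0.22 to 0.12, edgeR adjusted p = 0.698). With the offsets for GC content and length, Inpp5d was at -0.19 and just short of the threshold (edgeR adjusted p = 0.0592). For Fcer1g, Lyn, Syk, Plcg2 and Inpp5d the intervals thus exclude changes of the size seen for Fcgr2b, in either direction.

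**Figure D2:**
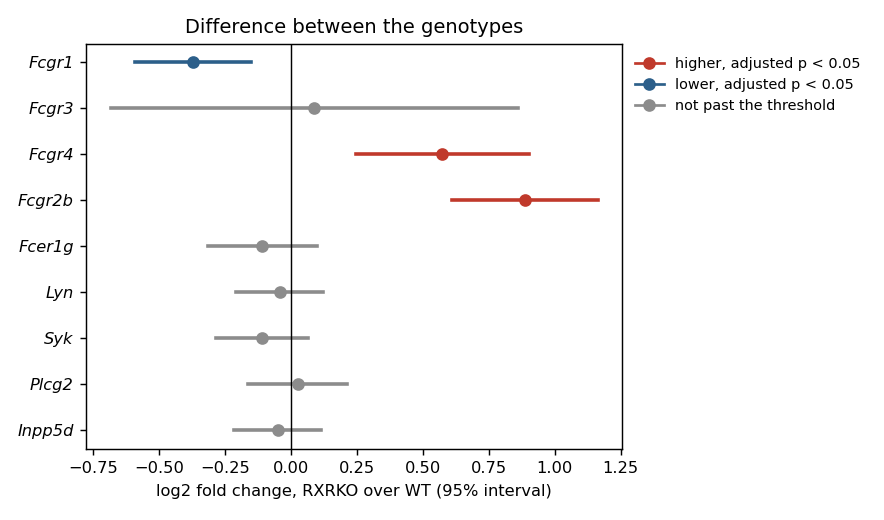
Log2 fold change of RXRKO over WT for each gene (horizontal axis), with its 95% interval from the edgeR fit. Fcgr4 (0.57) and Fcgr2b (0.89) are higher in RXRKO, Fcgr1 (-0.37) is lower, and Fcgr3 has the widest interval, -0.68 to 0.86.

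In all, 3 of the 9 genes were called, 2 of them higher and 1 lower in RXRKO, and 6 were not called. Over all 12011 tested genes 19.4% were called, 9.77% higher and 9.61% lower, and the count for the 9 genes is read beside that background. The groups did not overlap in 3 of the 9 genes, against 36.9% of all tested genes. The median log2 fold change of the 9 genes was -0.04, and that of all tested genes was -0.005. In bulk RNA, a different number of cells that express a gene and a different amount per cell cannot be told apart.

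Per length, the balance between activating and inhibitory receptor transcripts was lower in RXRKO. Levels between genes were compared as CPM per kilobase of merged exons. For Fcgr2b these span 5790 bases and the longest transcript 3544, and for Fcgr3 1736 and 1347. The levels of Fcgr2b and Fcgr3 beside other genes, and the ratios and shares built on them, depend on this choice. Fcgr3 was highest, at 147 ± 45.1 CPM per kb in RXRKO and 138 ± 36.8 in WT, and Fcgr2b lowest, at 5.63 ± 0.778 in RXRKO and 3.05 ± 0.247 in WT (SD, n = 3 each). Between them, Fcgr1 (32.2 ± 3.74) and Fcgr4 (29.2 ± 3.23 CPM per kb) stood within their spread of each other in RXRKO, whereas in WT Fcgr1 (41.7 ± 3.42) stood above Fcgr4 (19.3 ± 4.65 CPM per kb). The ratio of Fcgr4 to Fcgr1 was 0.901, 0.909 and 0.914 in the RXRKO replicates, against 0.417, 0.381 and 0.596 in the WT replicates. The 3 RXRKO ratios were close to each other although the levels behind them differed.

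The summed activating receptors were 40, 38.7 and 31.3 times the Fcgr2b level in the RXRKO replicates, against 69.1, 52.2 and 74 times in the WT replicates. Every RXRKO library lay below every WT library in this ratio of levels per kb. Without Fcgr3, the gene with the low libraries, the ratios were 11.3, 10.3 and 11.2 in the RXRKO replicates and 19.4, 18.7 and 22 in the WT replicates. On the log2 scale the full ratio was 5.19 ± 0.193 in RXRKO and 6.01 ± 0.268 in WT (SD, n = 3 each), a difference of -0.82. No test was made, since the ratio is built from genes whose differences were already known. Fcgr2b made up 2.44%, 2.52% and 3.1% of the summed transcripts of the 4 receptors per kb in the RXRKO replicates, against 1.43%, 1.88% and 1.33% in the WT replicates. Fcgr2b and Fcgr3 share stretches of sequence: 94 of the 1733 read-length words of Fcgr3 (75 bases), 5.42%, also occur in Fcgr2b. How the authors' counting placed reads from these stretches is not known here, and an antisense gene, Gm38204, overlaps 155 exonic bases of Fcgr2b, so part of the Fcgr2b level is uncertain. Lyn is uncertain for the same reasons, with 10.11% of its words shared with Gm11787 and 248 exonic bases overlapped by Gm26857 on the other strand.

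**Figure D3:**
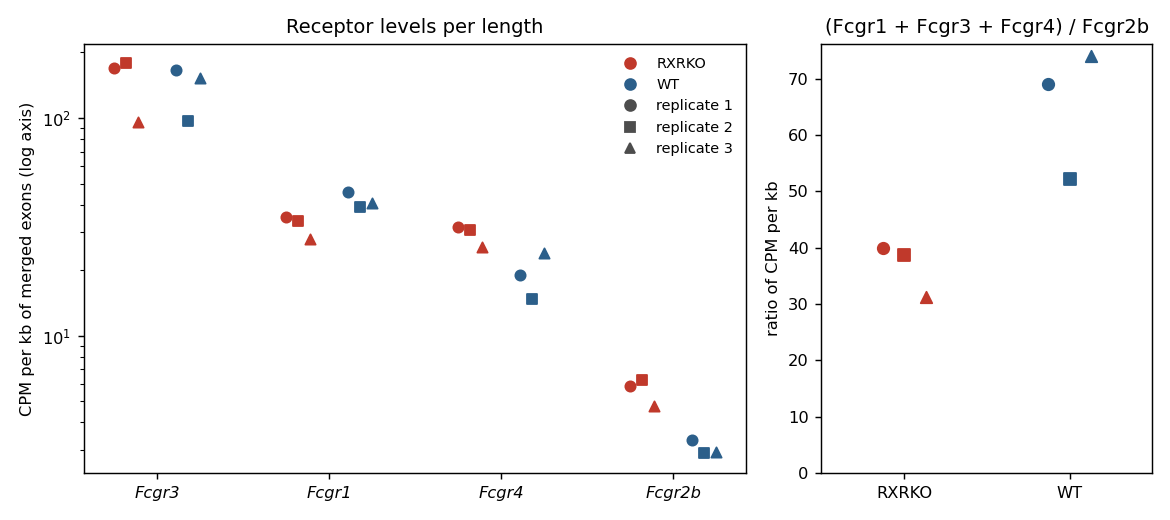
Left, CPM per kilobase of merged exons (log axis) for the 4 receptor genes in RXRKO libraries (red) and WT libraries (blue). Right, the sum of Fcgr1, Fcgr3 and Fcgr4 over Fcgr2b in each library (linear axis from 0), between 31.3 and 40 in RXRKO and between 52.2 and 74 in WT.

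Fcgr2b (ENSMUSG00000026656), Fcgr4 (ENSMUSG00000059089), Fcgr3 (ENSMUSG00000059498) and Fcer1g (ENSMUSG00000058715) lie in this order on chromosome 1, from 170958617 to 171234365 in GRCm38, while Inpp5d is far from them on the same chromosome (87620312 to 87720507). Fcgr1 is on chromosome 3 (96282909 to 96293969), Lyn on chromosome 4 (3678115 to 3813122), Plcg2 on chromosome 8 (117498291 to 117635142) and Syk on chromosome 13 (52583173 to 52648792). No member shares a chromosome with Rxra, Rxrb or Lyz2. Of the 9 tested genes that lie within the chromosome 1 interval, 3 rose and 0 fell by edgeR, against 9.77% higher and 9.61% lower over all tested genes. The interval is bounded by members, and 2 of the 3 are Fcgr2b and Fcgr4, already given above, so the count is no separate result. The other was Pcp4l1, a gene named here after its values were seen, with 168 ± 3.54 CPM in RXRKO and 118 ± 3.66 CPM in WT (log2 fold change 0.51). Its neighbours Fcgr3, Sdhc, Tomm40l, Cfap126 and Fcer1g did not pass. Fcgr3, Cfap126 and Sdhc lie between Fcgr4 and Pcp4l1.

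The receptor genes shared a pattern among libraries that the genotype does not describe, clearest for Fcgr3. RXRKO replicate 3 was the lowest RXRKO library and WT replicate 2 the lowest WT library for all 5 receptor and chain genes (Fcgr1, Fcgr3, Fcgr4, Fcgr2b and Fcer1g), and for 1 of the 4 other genes, Plcg2. Over all tested genes the same held for 23.7%. The libraries were picked after the receptor values were seen, so these counts describe the libraries and are no test. For Fcgr3, Fcer1g and Plcg2 these libraries were also below all of the other 4, as for 10.7% of tested genes. On the log2 scale these libraries averaged -0.79 relative to the other 4 for Fcgr3 and -0.41 for Fcgr4. They averaged -0.23 for Fcgr2b, -0.22 for Fcgr1 and -0.22 for Fcer1g. The remaining genes were at -0.14 for Plcg2, -0.07 for Lyn, -0.03 for Inpp5d and 0.06 for Syk. Among RXRKO libraries the coefficient of variation was 1.08% for Lyn and 1.04% for Inpp5d, against 30.6% for Fcgr3. Among WT libraries it was 5.17% for Lyn, 5.34% for Fcer1g and 5.71% for Inpp5d, against 26.6% for Fcgr3, and Plcg2 (7.91%) was about level with Fcgr2b (8.09%) and Fcgr1 (8.22%). The second principal component of all tested genes, with 19% of the variance, had its lowest scores in WT replicate 2 (-29.6) and RXRKO replicate 3 (-15.6). WT replicate 2 had the fewest reads of all libraries (7880320), and RXRKO replicate 3 had 18491943. The part of depth or of any other property of these libraries in the pattern was not tested.

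**Figure D4:**
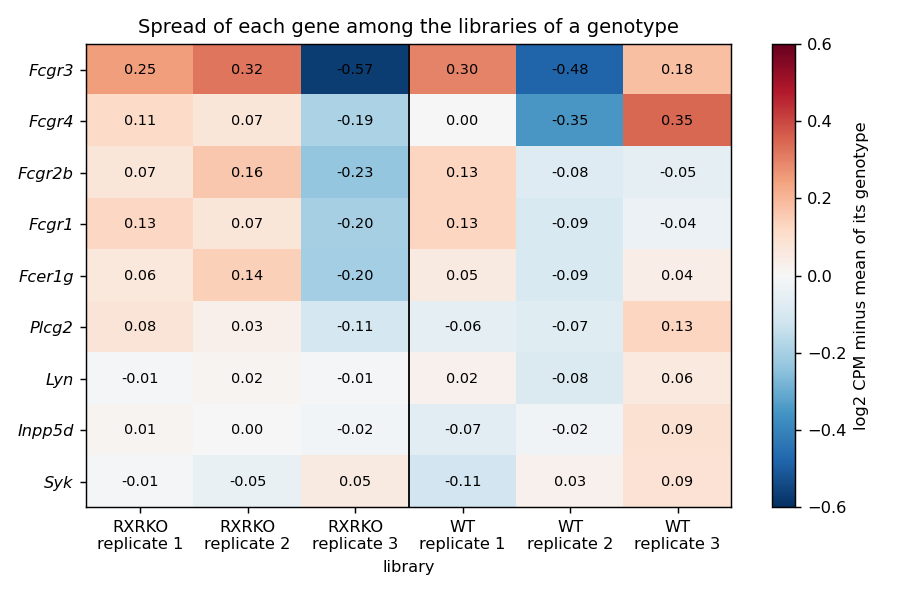
Log2 CPM of each gene (rows) in each library (columns) minus the mean of the 3 libraries of its genotype, printed in each cell and coloured from blue (below the mean) to red (above it). RXRKO replicate 3 and WT replicate 2 are below their genotype's mean for Fcgr3 (-0.57 and -0.48) and for the 4 rows under it. RXRKO replicate 3 is near that mean for Lyn, Inpp5d and Syk. In WT replicate 2, Fcgr2b (-0.08), Fcgr1 (-0.09) and Fcer1g (-0.09) are no further below it than Lyn (-0.08) by more than 0.01.

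Genes with a pattern over the 6 libraries like that of a member were found by the root mean square difference of log2 CPM after centring each gene, over tested genes with an assigned symbol. Closest to Fcgr2b was Clec7a (difference 0.041), the gene of the beta-glucan receptor Dectin-1, which had 222 CPM in RXRKO and 125 CPM in WT. Next were Samsn1 (0.054), which encodes a signalling adaptor of leukocytes, Lamc1 (0.056), a laminin chain gene, the transcription factor gene Klf4 (0.072) and Olfm1 (0.075). Samsn1 had 30.8 CPM in RXRKO and 15.8 CPM in WT, close to the levels of Fcgr2b itself. Closest to Fcgr1 were Lap3 (0.021), a leucine aminopeptidase gene, Zfp362 (0.029), Bud23 (0.036), Pdcd5 (0.036) and Mrpl35 (0.037). For Fcgr3, added after its values were seen, the closest were Ifitm2 (0.071), Zfp983 (0.093), Mpc1 (0.10), Glipr1 (0.111) and Rsu1 (0.112), and their log2 fold changes ran from -0.06 (Rsu1) to 0.17 (Ifitm2). These are descriptions of 6 libraries, with no test.

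Src family kinases other than Lyn act at the same step. Of 9 listed genes of this family and its regulators, 6 were tested. Of these 2 were called higher, 1 lower and 3 not (edgeR), which is 50% called against 19.4% of all tested genes. The median log2 fold change was 0.10, against -0.005 over all tested genes. Fgr, a kinase of this family, had 11.3, 11.6 and 11.5 CPM in the RXRKO replicates, against 32.2, 33.6 and 44.6 CPM in the WT replicates. The groups were far apart. The log2 fold change was -1.69 (SE 0.135, edgeR adjusted p = 3.6e-06), larger in size than that of any of the 9 genes. Src (0.33) and Pag1 (0.38), the anchor of the inhibitory kinase Csk, were both at the edge of the threshold. The call of Src was lost without any 1 of the 6 libraries (edgeR adjusted p from 0.0626 to 0.11), and that of Pag1 without any library other than WT replicate 3 (0.0587 to 0.158), so that Fgr alone of the list was called without any 1 of the other 5 libraries. With the length and GC offsets Src was at 0.21 (edgeR adjusted p = 0.144) and Pag1 at 0.16 (0.321).

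Adaptors, PI3 kinases and other enzymes that act behind Syk numbered 34 among the tested genes. Of these 10 were higher, 1 lower and 23 not called (edgeR), with a median log2 fold change of 0.16. The share called was 32.4%, against 19.4% of all tested genes (9.77% higher and 9.61% lower). Prkcb, a protein kinase C activated by the product of phospholipase C, had 212, 213 and 209 CPM in the RXRKO replicates, against 94.9, 105 and 96.5 CPM in the WT replicates (log2 fold change 1.10, edgeR adjusted p = 1.24e-06). The RXRKO libraries were close together and well above every WT library. The adaptor gene Lat2 rose (252 ± 9.86 CPM in RXRKO, 183 ± 3.16 CPM in WT, log2 fold change 0.46), as did Cblb, a ubiquitin ligase gene that restrains immune receptor signalling (0.61). Lcp2, which encodes the adaptor SLP-76, a substrate of Syk, fell: it had 52.2, 49.9 and 45 CPM in the RXRKO replicates, against 85.4, 81.5 and 92.2 CPM in the WT replicates (-0.82, edgeR adjusted p = 5.3e-05). Fewer passed in some settings: 6 rose and 1 fell without RXRKO replicate 1 or without WT replicate 1, and 5 rose and 2 fell with the length and GC offsets.

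Of 38 tested genes of the actin and membrane machinery of engulfment, 6 were higher, 3 lower and 29 not called (edgeR), with a median of -0.03. The share called, 23.7%, was near the 19.4% of all tested genes. Cybb, the catalytic subunit gene of the phagocyte NADPH oxidase, had 1010, 1060 and 935 CPM in the RXRKO replicates, against 622, 604 and 645 CPM in the WT replicates (log2 fold change 0.68, edgeR adjusted p = 7.33e-05). Pip5k1c, which makes the lipid substrate of phospholipase C (0.36), and Dock2, an activator of Rac (0.36), also rose. Pla2g4a, the phospholipase gene of arachidonate release (-0.60), Myo10, a motor of filopodia (-0.52), and Gsn, the actin-severing gelsolin (-0.31), fell. Pip5k1c lost its call without RXRKO replicate 1 or WT replicate 1 (edgeR adjusted p 0.0596 and 0.0533), and Dock2 without RXRKO replicate 1 or 2 (0.0575 and 0.0609). Both calls were also lost with the length and GC offsets, where the estimates were 0.22 for Pip5k1c (edgeR adjusted p = 0.0564) and 0.19 for Dock2 (0.0909). Gsn lost it without RXRKO replicate 1 or 2 or WT replicate 1 or 2 (0.0624 to 0.0882). The list's count was 3 without RXRKO replicate 1 and 4 without RXRKO replicate 2 or WT replicate 1.

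Of 20 tested inhibitory receptors, phosphatases and adaptors, 2 were higher, 3 lower and 15 not called (edgeR, median 0.06). The share called, 25%, was near the 19.4% of all tested genes. Inppl1, which encodes SHIP-2, the relative of the Inpp5d product, had 315, 320 and 302 CPM in the RXRKO replicates, against 210, 209 and 260 CPM in the WT replicates (log2 fold change 0.46, edgeR adjusted p = 0.00402). The ITIM receptor gene Cd300a fell, at 297 ± 7.63 CPM in RXRKO and 429 ± 28.1 CPM in WT (-0.53, edgeR adjusted p = 5.02e-04). Pecam1 fell on low levels, 0.793 ± 0.259 CPM in RXRKO and 2.41 ± 0.425 CPM in WT (-1.59), and Cd300lf rose on low levels, 3.43 ± 0.68 CPM in RXRKO and 1.85 ± 0.191 CPM in WT (0.90). The adaptor gene Dok3 fell (-0.25). The call of Dok3 was lost without any 1 of the 6 libraries (edgeR adjusted p from 0.0579 to 0.158) and that of Cd300lf without any library other than RXRKO replicate 2 (0.0516 to 0.095). The count of the list was 3, with 1 higher and 2 lower, without any library other than RXRKO replicate 2.

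Receptors that signal through other ITAM chains or share the gamma chain included 15 tested genes. Of these 4 were higher, 0 lower and 11 not called (edgeR, median 0.06), or 26.7% called against 19.4% of all tested genes. Clec4n (Dectin-2) and Clec4e (Mincle), lectin receptor genes whose products pair with the same gamma chain as the Fc receptors, were among the 4. Clec4n had 30.9, 35.7 and 33.2 CPM in the RXRKO replicates, against 15.7, 17.1 and 15.2 CPM in the WT replicates (log2 fold change 1.07, edgeR adjusted p = 2.84e-05), and Clec4e rose by 0.71 on the log2 scale. Clec7a, which couples to Syk through a single-tyrosine motif of its own, was at 222 ± 31.1 CPM in RXRKO and 125 ± 13.9 CPM in WT. Clec4d, a more abundant lectin receptor gene of the list, did not pass, at 553 ± 49.8 CPM in RXRKO and 575 ± 73.4 CPM in WT (-0.06, edgeR adjusted p = 0.745). The level of the chain gene itself, Fcer1g, did not pass the test, as given above, so Clec4n and Clec4e rose beside a chain with overlapping groups.

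Genes of other antibody receptors and of Fc receptor-like proteins, not all known to bind antibody, were mostly silent, with 4 of 13 listed genes tested. Of these 0 were higher and 2 lower (edgeR), which is 50% called against 19.4% of all tested genes. Fcgrt, the heavy chain of the neonatal Fc receptor, which protects internalised IgG from breakdown, had 64.9, 55.1 and 77.2 CPM in the RXRKO replicates, against 118, 151 and 109 CPM in the WT replicates. The groups were apart (log2 fold change -0.93, SE 0.139, edgeR adjusted p = 0.000581). Fcrls fell slightly (-0.34, edgeR adjusted p = 0.0438), a call lost without any library other than WT replicate 3 (0.0803 to 0.142), where Fcgrt alone of the list was called. Fcer1a and Ms4a2, chains of the IgE receptor that also uses the gamma chain, had at most 2 reads in any library, and Fcamr and Fcmr had 0 reads in all 6.

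**Figure D5:**
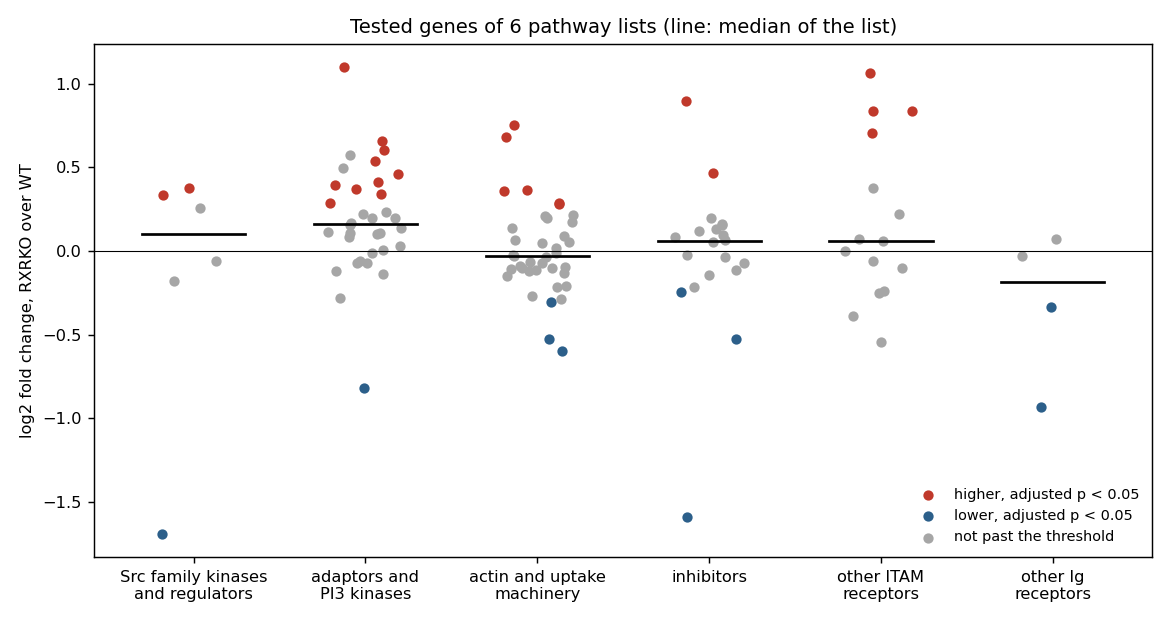
Log2 fold change of RXRKO over WT (vertical axis) for the tested genes of 6 lists, with each dot a gene and the line the median of its list. Genes past the threshold are red when higher and blue when lower in RXRKO. Most of those behind Syk are higher (10 of 11 called), and Fgr is the lowest dot at -1.69. Over all tested genes 9.77% are higher and 9.61% lower.

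Cells other than macrophages also carry these receptors, and their markers were summed. B cells express Fcgr2b as their Fc gamma receptor: the 10 B cell markers summed to between 40.9 and 51.6 CPM in RXRKO and between 63.1 and 72.9 CPM in WT, mostly Ighm (28.6 ± 3.51 CPM in RXRKO, 50.7 ± 4.36 CPM in WT). Cd79a, Ms4a1, Pax5, Igkc, Ebf1 and Cr2 were below 1 CPM in every library. The markers did not all go one way: Cd79b was lower in RXRKO, at 1.7 ± 0.247 CPM in RXRKO and 5.25 ± 0.599 CPM in WT (-1.65, edgeR adjusted p = 0.00027), while Cd22 had 15.1 ± 1.64 CPM in RXRKO and 12.3 ± 0.593 CPM in WT with groups apart but no call (0.29, edgeR adjusted p = 0.135). Below 1 CPM, Igkc had 0.67 ± 0.0633 CPM in RXRKO and 0.147 ± 0.156 CPM in WT. Neutrophils express Fcgr3 and Fcgr4: all 12 neutrophil markers were detected, with sums of 1120 to 1260 CPM in RXRKO and 1180 to 1330 CPM in WT. These ranges overlapped. Of the markers 3 were higher, 3 lower and 6 not called (edgeR), which is 50% called against 19.4% of all tested genes. Ngp, the most abundant of them in WT, was lower, at 313 ± 24.5 CPM in RXRKO and 377 ± 19.3 CPM in WT (-0.27, edgeR adjusted p = 0.04), as were the granule protein genes Mpo (-0.88) and Elane (-1.10). Csf3r (0.75), Mmp8 (0.61) and Cxcr2 (1.19) were higher in RXRKO, and all the called markers other than Ngp are named after their values were seen. Csf3r had 84.8, 88 and 70.7 CPM in the RXRKO replicates, against 50.2, 38.1 and 55.6 CPM in the WT replicates. Its lowest values were in the same libraries as those of the receptors, as for 23.7% of all tested genes. Mmp8, S100a8 and S100a9 shared this, and the other neutrophil markers did not. Camp and Ltf had their highest values of each genotype in those libraries. These genes too are named after their values were seen. Mast cell markers summed to 11 to 13 CPM in RXRKO and 8.82 to 10.7 CPM in WT, mostly Hdc (8.07 ± 0.508 CPM in RXRKO, 6.35 ± 1.23 CPM in WT), with Mcpt4, Cma1 and Tpsb2 at 0. NK and T cell markers summed to 1.11 to 2.15 CPM in RXRKO and 1.3 to 2.59 CPM in WT, with Gzma, Gzmb and Prf1 at 0. The most abundant of them in WT was Nkg7 (0.708 ± 0.193 CPM in RXRKO, 1.28 ± 0.517 CPM in WT). These markers did not all go one way. Klrb1c, named after its values were seen, had 0.462 ± 0.261 CPM in RXRKO and 0.134 ± 0.0712 CPM in WT. Dendritic cell markers summed to 256 to 268 CPM in RXRKO and 178 to 191 CPM in WT, mostly Itgax (245 ± 7.13 CPM in RXRKO, 170 ± 4.98 CPM in WT), which macrophages express too, and 7 of these 10 were below 1 CPM throughout. The part of RNA from B cells, neutrophils, mast cells, NK and T cells or dendritic cells in the receptor differences was not tested.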

How the data were processed

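RNA was sequenced single-end with a 75-cycle kit from libraries made of 100 ng of RNA, as the labels' protocols state. TopHat2 2.0.7, DESeq, mm10 and GRCm38 appear, per the submitters' processing notes. For the counting program, annotation release and use of strand, the entry is: not given in the sources used here. The authors deposited raw counts per Ensembl gene for 45193 genes, used for all main results, and a table of log2 values normalized between libraries, used for 1 alternative after adding 1 to the linear values.

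The main test was the edgeR 4.0.16 pipeline under R 4.3.3, with TMM factors, filterByExpr (minimum count 10, minimum total 15), robust quasi-likelihood F tests, genotype as the only term, and Benjamini-Hochberg adjustment over 12011 genes at 0.05. The SE was derived as |log2 fold change| over the root of F, and 95% intervals use the t quantile of the fit's degrees of freedom. The procedure was tested on simulated data. These had the same spread beyond counting noise for every gene and no pattern shared among libraries. They therefore do not cover a spread like that of Fcgr3. CPM are TMM-scaled. Symbols, positions and lengths came from GENCODE M21 (GRCm38). Of the listed pathway and marker genes, 2 had no match. Alternatives used limma 3.58.1 and DESeq2 1.42.0. The genes and lists were chosen with earlier results of these data known. Named beyond the 9 genes were, in each pathway list, up to 3 called genes in each direction with the smallest adjusted p, in each list of other cell types its most abundant marker in WT, and the 5 genes most like the members with the highest and lowest fold change. One read is worth 0.0397 to 0.0582 CPM in RXRKO and 0.0653 to 0.13 CPM in WT. Values of a few genes are not reported here.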

Additional observations from a re-analysis of the deposited data

How the results depend on the processing

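Of the 17 alternatives, 6 leave out 1 library each. The count of called genes among the 9 stayed at 2 to 4 in all settings other than without WT replicate 1. Leaving out each library in turn gave 1 to 3 called members, 1286 to 2607 called genes overall and 18 to 33 called genes over the 6 pathway lists. With all libraries thinned to 7880320 reads, 2073 genes were called overall. Fcgr2b (0.90), Fcgr4 (0.62) and Fcgr1 (-0.35, edgeR adjusted p = 0.0426) kept their calls there. With the replicate number as a block, 1375 genes were called overall and 18 in the pathway lists. Fcgr1 missed the threshold with that block (-0.38, edgeR adjusted p = 0.0516). So did the named pathway genes Src, Pag1, Pip5k1c (0.0537), Dock2 (0.062), Gsn, Cd300lf, Dok3 and Fcrls, each of which also lost its call without at least 1 single library. The numbers were not taken to pair the libraries, since deviations of same-numbered libraries correlated at 0.043, -0.23 and -0.232, and RXRKO replicate 3 correlated best with WT replicate 2 (0.262). The direction turned for members short of the threshold. With the length and GC offsets Fcer1g was at 0.046 and Plcg2 at -0.081, and Rxra at -0.096. Leaving out single libraries moved Fcgr3 between -0.112 and 0.323 and Plcg2 between -0.014 and 0.09. The log2 ratio of activating receptors to Fcgr2b differed by -0.972 to -0.71 without single libraries. Of 153 values over the members and alternatives, 137 kept their direction and side of the threshold. With no filter the median log2 fold change of all genes was 0.123, over 27301 genes that include very low ones. The causes of these changes were not tested. Precision is limited by 3 libraries per genotype and, for Fcgr2b and Fcgr4, by the 128 and 143 reads in WT replicate 2.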
